A study of Homo sapiens with 6 samples.

Results

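Prostaglandin synthesis and receptor genes were followed in SKOV3 (SK-OV-3), an established human ovarian cancer cell line, with and without cGAMP, the cyclic dinucleotide that binds STING1. The 7 genes were PTGS1, PTGS2, PTGES, PTGER2, PTGER3, PTGER4 and HPGD, found by symbol among the 60498 genes of the count table. They were chosen by a rule that names the pathway and the cGAMP response of PTGER4 in lines with a WT allele of STING1, so the responses to cGAMP are described here and carry no test. The 15126 genes analysed had a count of 10 or more on average across the libraries, and they include all of the 7 but PTGER3. The parent line, WT/HAQ, has both kinds of STING1 allele, HAQ being a common haplotype with 3 amino acid changes. WT/- kept only the WT allele and HAQ/- only the HAQ allele. Each of these 2 lines is 1 clone, made with lentiviral CRISPR/Cas9 guides on both sides of the coding sequence, so the allele and the clone cannot be told apart. Every line gave 1 control library and 1 library from cells exposed to 2'3'-cGAMP at 10 μg/mL during 30 min in a digitonin buffer, which opens the plasma membrane, followed by 4 h of rest. How the control cells were handled is not given in the sources used here. No condition had a replicate, and intervals in brackets are 95% intervals that cover counting error only.

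Prostaglandins are lipid signals made from arachidonic acid, which phospholipases A2 release from membrane phospholipids. The cyclooxygenases, encoded by PTGS1 (COX-1, present in many resting cells) and PTGS2 (COX-2, induced by inflammatory signals), turn it into prostaglandin H, and PTGES converts this to prostaglandin E. Prostaglandin E acts on G protein-coupled receptors of the EP family. EP2 (PTGER2) and EP4 (PTGER4) couple to the stimulatory G protein and raise cAMP, whereas EP3 (PTGER3) mainly couples to the inhibitory G protein. HPGD, the NAD-dependent 15-hydroxyprostaglandin dehydrogenase, starts the breakdown of prostaglandins. In epithelial tumors the pathway is best known for the growth-promoting and immune-suppressive actions of prostaglandin E.

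The libraries held from 12444791 counts in the WT/- cGAMP library to 17608427 in the WT/HAQ control library. STING1, the edited gene, stood at normalized counts (counts scaled for the size and composition of the libraries) of 669 and 1780 in the control and cGAMP libraries of WT/HAQ, 353 and 553 in the WT/- clone, and 213 and 403 in the HAQ/- clone, and gene counts do not separate its alleles. The interferon-stimulated genes IFIT1, ISG15 and MX1 were higher with cGAMP in all 3 lines, with log2 fold changes of 6.83 (SE 0.51), 5.93 (SE 0.43) and 5.95 (SE 0.39) across the lines and adjusted p of 0.00789, 0.00732 and 0.00624 in edgeR's quasi-likelihood test with the line as a block, adjusted by Benjamini-Hochberg over all analysed genes. The cGAMP folds of IFIT1, ISG15 and MX1 differed between lines, with WT/- to WT/HAQ ratios of 0.408, 0.358 and 0.295. The ratios of WT/- to HAQ/- were 2.05, 1.36 and 0.729. All 5 epithelial markers (KRT8, KRT18, KRT19, ERBB2, PAX8) passed the filter, with summed normalized counts from 67189 to 100470. The summed counts were 1.09 to 6.65 for 3 leukocyte markers, 9.72 to 39.2 for 3 endothelial markers and 6.11 to 20.0 for 3 smooth muscle and fibroblast markers. KRT19, a keratin, was lower in both clones than in the parent line, by log2 changes of -3.63 (SE 0.18) in the WT/- clone and -3.59 (SE 0.18) in the HAQ/- clone with adjusted p of 0.00258 and 0.00889 in the edgeR test between lines. ERBB2 was lower in the WT/- clone by a log2 change of -0.43 (adjusted p = 0.0301). PAX8, a lineage transcription factor, had normalized counts of 6751 and 1966 in the control and cGAMP libraries of WT/HAQ, 9391 and 4970 in the WT/- clone, and 4613 and 3276 in the HAQ/- clone, with a log2 change of -1.06 with cGAMP (SE 0.25, adjusted p = 0.0820 in edgeR and 0.000552 in DESeq2). KRT19, ERBB2 and PAX8 were picked after their values were seen, so their p-values are not independent of the choice. In controls, KRT8 and KRT18 had normalized counts of 14630 and 5715 in WT/HAQ, 13230 and 5067 in WT/- and 9254 and 4335 in HAQ/-. The part of the epithelial markers in the results was not tested. In cultures such as these, fewer cells that express a gene and less RNA per cell cannot be told apart.

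The sequences just upstream of the 3 genes with the largest cGAMP folds among the 6 analysed, in both lines with a WT allele, are shown because these are the windows in which their promoters were searched for short motifs. Each is the 250 bases before the RefSeq start on GRCh38.p14, written 5′ to 3′ on the strand of the gene, with capitals for letters that match a searched motif. PTGER4 (ENSG00000171522) lies on the plus strand of chromosome 5 from 40679915 to 40693735 in GENCODE release 44, and its window is chr5:40679665-40679914. PTGS2 (ENSG00000073756) lies on the minus strand of chromosome 1 from 186671791 to 186680922, and its window chr1:186680424-186680673 is in an intron of an annotated transcript that starts farther upstream and partly in an exon of PACERR, a noncoding gene on the plus strand. PTGER2 (ENSG00000125384) lies on the plus strand of chromosome 14 from 52314305 to 52328598, and its window chr14:52314062-52314311 overlaps an exon of a noncoding gene at its far end.
PTGER4: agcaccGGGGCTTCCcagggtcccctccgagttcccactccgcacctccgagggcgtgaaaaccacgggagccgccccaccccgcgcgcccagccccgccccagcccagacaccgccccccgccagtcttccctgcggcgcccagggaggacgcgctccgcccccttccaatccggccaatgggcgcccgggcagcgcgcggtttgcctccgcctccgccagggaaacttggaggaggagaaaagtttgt
PTGS2: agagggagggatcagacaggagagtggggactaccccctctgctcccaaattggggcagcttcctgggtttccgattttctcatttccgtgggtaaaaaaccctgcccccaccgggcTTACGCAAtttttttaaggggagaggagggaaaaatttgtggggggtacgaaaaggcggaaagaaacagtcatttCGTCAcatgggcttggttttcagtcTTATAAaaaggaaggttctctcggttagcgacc
PTGER2: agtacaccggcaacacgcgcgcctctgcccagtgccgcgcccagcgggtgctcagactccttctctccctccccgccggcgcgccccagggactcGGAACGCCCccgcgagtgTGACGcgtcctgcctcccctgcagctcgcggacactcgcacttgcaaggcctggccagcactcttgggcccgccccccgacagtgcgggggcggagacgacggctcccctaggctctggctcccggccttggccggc

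The windows differed in composition, with a GC content of 72.8% for PTGER4, 50.4% for PTGS2 and 74.0% for PTGER2. The PTGER4 window held 1 match to the kappa B letters GGNNNTTCC, starting 244 bases before the start, and PTGER2 held 1, in the reverse complement, at 155 bases before it. These letters occur on either strand in 17.1% of 35116 RefSeq windows of the same length. PTGS2 held no such match, but 1 match to the C/EBP letters TTNNGCAA at 133 bases before the start and a TATAA box, whose 2 overlapping readings on the opposite strands begin 33 and 32 bases before it, against 9.05% and 18.9% of all windows. The CRE half-site TGACG, a part of the element that binds cAMP-responsive factors, was found in 3 of the 8 windows of the 6 genes, those of PTGS2 and PTGER2 and 1 of the 2 of HPGD, and in 21.2% of all windows. The IRF pair GAAANNGAA, the AP-1 letters TGANTCA and the E-box CACGTG were found in 0 of the 8, against 6.88%, 6.57% and 6.34% of all windows. A match describes letters and not a bound site, and a window without a match says nothing about the factor.

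PTGER4, the gene of the EP4 receptor, had the largest cGAMP folds of the 6 analysed genes in both lines with a WT allele. Its raw count was 42 in the control and 1049 in the cGAMP library of WT/HAQ, 27 and 827 in the WT/- clone, and 39 and 41 in the HAQ/- clone. The 2 cGAMP libraries with a WT allele were therefore far above the other 4 libraries, which lay close together. After normalization the levels were 37.1 [26.8, 50.2] and 997 [938, 1059] in WT/HAQ, 25.2 [16.6, 36.7] and 1105 [1031, 1182] in the WT/- clone, and 34.0 [24.2, 46.5] and 44.9 [32.2, 60.9] in the HAQ/- clone. In rising order the first 4 levels were the WT/- control, the HAQ/- control, the WT/HAQ control and the HAQ/- cGAMP library, and the intervals of neighbors in this order overlapped. Between the 2 highest libraries, the level in WT/- was 1.11 times that in WT/HAQ [1.01, 1.21].

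The cGAMP fold of PTGER4 was 26.9 [19.8, 36.5] in WT/HAQ, 43.8 [29.9, 64.2] in the WT/- clone and 1.32 [0.854, 2.04] in the HAQ/- clone. It ranked 72 of 15114 genes with a fold in WT/HAQ, 30 of 15099 in the WT/- clone and 1518 of 15072 in the HAQ/- clone. The fold in WT/HAQ was 20.4 times that in the HAQ/- clone [11.9, 34.8], and the fold in the WT/- clone was 33.2 times it [18.6, 59.5]. The 2 lines with a WT allele differed less, with a ratio of 1.63 [0.998, 2.67] between WT/- and WT/HAQ. This contrast chose the gene, so the values are a description. PTGER4 overlaps TTC33, a protein-coding gene on the other strand, and the strand setting of the counting is not given in the sources used here. TTC33 had 299 and 350 counts in WT/HAQ, 227 and 233 in the WT/- clone and 326 and 240 in the HAQ/- clone, so its counts in the control and cGAMP libraries differed by far less than those of PTGER4 in the 2 lines where PTGER4 was raised.

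**Figure D1:**
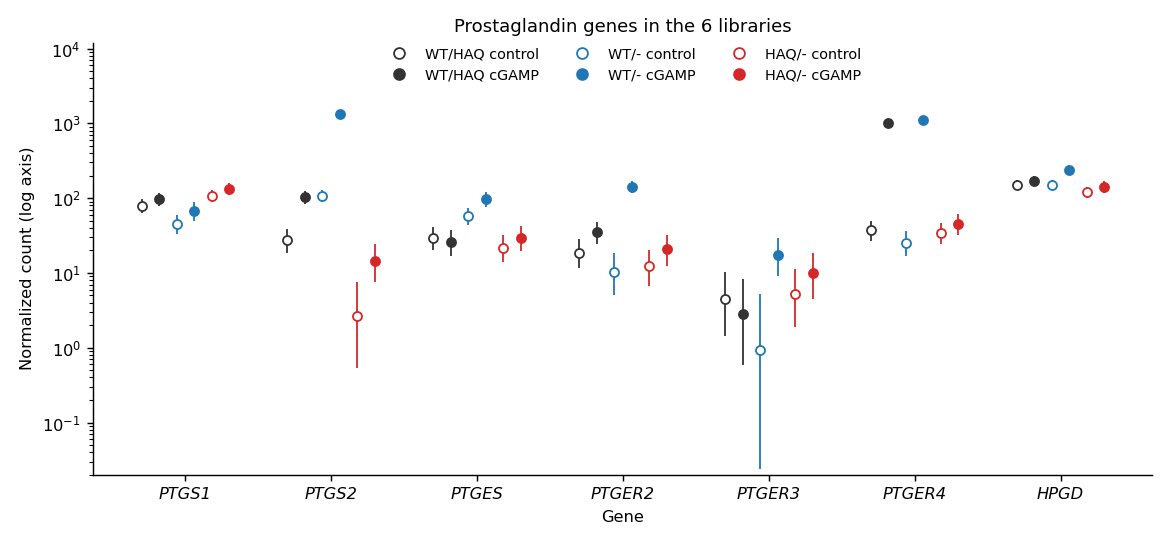
Normalized count of each of the 7 genes (log axis) in the 6 libraries, with open symbols for control, filled symbols for cGAMP, a color for each line and bars for 95% counting intervals. With cGAMP, PTGER4 stands at 997 in WT/HAQ and 1105 in the WT/- clone, and elsewhere between 25.2 and 44.9, while HPGD lies between 121 and 238 and PTGS1 between 44.8 and 135.

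PTGS2, which encodes COX-2, differed between lines before treatment as well as with cGAMP. Its raw count was 31 in the control and 108 in the cGAMP library of WT/HAQ, 115 and 1006 in the WT/- clone, and 3 and 13 in the HAQ/- clone. The cGAMP library of each line was above its own control, and the lines kept the order HAQ/-, WT/HAQ, WT/- under both treatments. The normalized levels were 27.4 [18.6, 38.9] and 103 [84.2, 124] in WT/HAQ, 107 [88.6, 129] and 1344 [1262, 1429] in the WT/- clone, and 2.62 [0.540, 7.65] and 14.2 [7.58, 24.3] in the HAQ/- clone. The control level of WT/- thus reached the cGAMP level of WT/HAQ, with overlapping intervals. The cGAMP fold was 3.75 [2.52, 5.57] in WT/HAQ, 12.5 [10.3, 15.2] in the WT/- clone and 5.44 [1.66, 17.8] in the HAQ/- clone, the last from 3 counts in the control library. With a floor of 10 counts in place of 3 the log2 fold in the HAQ/- clone was 0.71 instead of 2.44. The fold in the WT/- clone was 3.34 times that in WT/HAQ [2.14, 5.21], and the ratio to the fold in the HAQ/- clone was 2.30 [0.647, 8.20], an interval that includes 1. PTGS2 also overlaps PACERR on the other strand, which had between 0 and 1 counts in every library.

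PTGS1, the gene of COX-1, had a raw count of 90 and 102 in WT/HAQ, 48 and 50 in the WT/- clone and 124 and 123 in the HAQ/- clone. Its order of lines was the reverse of that of PTGS2, with the lowest counts in the WT/- clone. Its normalized levels were 79.6 and 96.9 in WT/HAQ, 44.8 and 66.8 in the WT/- clone, and 108 and 135 in the HAQ/- clone. The cGAMP fold was 1.22 [0.919, 1.62] in WT/HAQ, 1.49 [1.01, 2.21] in the WT/- clone and 1.24 [0.970, 1.60] in the HAQ/- clone. PTGES, the inducible prostaglandin E synthase, had raw counts of 33 and 27 in WT/HAQ, 61 and 73 in the WT/- clone and 25 and 27 in the HAQ/- clone. Its levels were 29.2 and 25.7 in WT/HAQ, 56.9 and 97.5 in the WT/- clone, and 21.8 and 29.6 in the HAQ/- clone, so both WT/- libraries lay above the other 4. The cGAMP fold of PTGES was 0.880 [0.532, 1.46] in WT/HAQ, 1.71 [1.22, 2.40] in the WT/- clone and 1.36 [0.792, 2.32] in the HAQ/- clone. With all libraries thinned to the smallest total, the log2 fold of PTGES in WT/HAQ was 0.61 instead of -0.18, so its direction there was not settled at this depth.

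PTGER2, the gene of the EP2 receptor, had raw counts of 21 and 37 in WT/HAQ, 11 and 106 in the WT/- clone and 14 and 19 in the HAQ/- clone. The WT/- cGAMP library stood alone at a normalized level of 142 [116, 171], and the other 5 libraries ranged from 10.3 to 35.2. The cGAMP fold was 1.89 [1.12, 3.22] in WT/HAQ, 13.8 [7.48, 25.4] in the WT/- clone and 1.70 [0.865, 3.35] in the HAQ/- clone. The fold in the WT/- clone was 7.28 times that in WT/HAQ [3.21, 16.5] and 8.10 times that in the HAQ/- clone [3.20, 20.5], whereas the ratio of WT/HAQ to HAQ/- was 1.11 [0.464, 2.67]. For PTGER4 the same ratio of WT/- to WT/HAQ was 1.63. The log2 fold of PTGER2 in the WT/- clone rested on 11 control counts and was 4.79 instead of 3.79 with the libraries thinned to the smallest total. PTGER3, the gene of the EP3 receptor, had counts of 5 and 3 in WT/HAQ, 1 and 13 in the WT/- clone and 6 and 9 in the HAQ/- clone. Its fold in the WT/- clone was 18.6 with an interval from 3.12 to 111, and in the other lines the interval included 1, at 0.645 [0.170, 2.44] in WT/HAQ and 1.88 [0.698, 5.07] in the HAQ/- clone.

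HPGD, which degrades prostaglandins, was the most even of the genes. Its raw counts were 170 and 178 in WT/HAQ, 160 and 178 in the WT/- clone and 139 and 130 in the HAQ/- clone, and its normalized levels ran from 121 in the HAQ/- control to 238 in the WT/- cGAMP library. The cGAMP fold was 1.13 [0.913, 1.39] in WT/HAQ, 1.59 [1.29, 1.97] in the WT/- clone and 1.17 [0.924, 1.49] in the HAQ/- clone. Per kilobase of the canonical transcript, HPGD was the highest of the 7 in each control library, with 57.4, 57.0 and 46.3 normalized counts per kilobase in WT/HAQ, WT/- and HAQ/-. With cGAMP, PTGER4 reached 291 per kilobase in WT/HAQ and 322 in the WT/- clone, where PTGS2 stood at 298. In the HAQ/- cGAMP library HPGD remained the highest at 54.3 per kilobase, against 13.1 for PTGER4 and 3.16 for PTGS2.

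**Figure D2:**
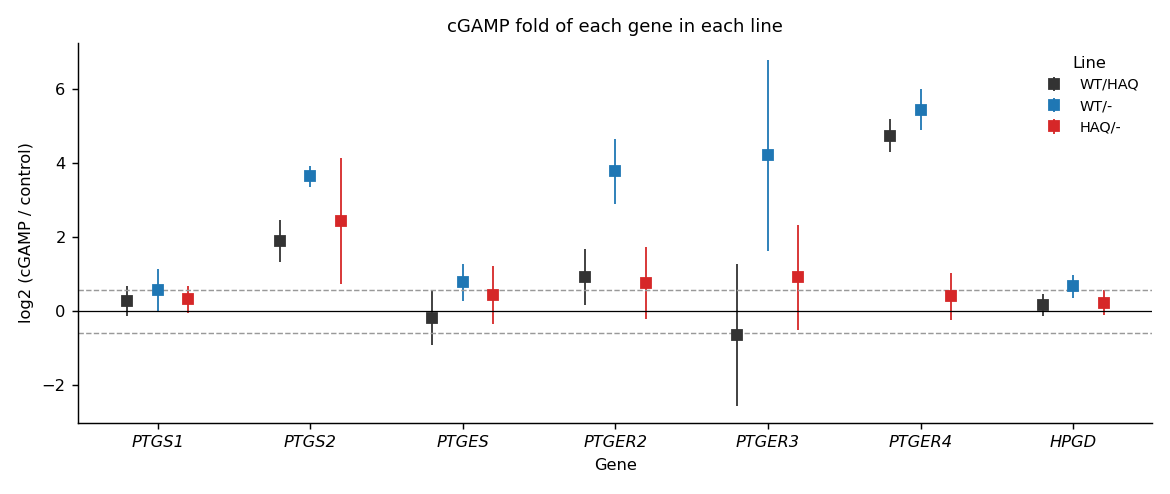
log2 ratio of the cGAMP to the control library for each of the 7 genes in each line, with 95% counting intervals, and dashed lines at 1.5-fold up and down. PTGER4 has folds of 26.9 and 43.8 where a WT allele is present and 1.32 in the HAQ/- clone, and the intervals of PTGER3 are wide.

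Counted at 1.5-fold or more, 3 of the 6 analysed genes were raised with cGAMP in WT/HAQ (PTGS2, PTGER2 and PTGER4), where 12.8% of all analysed genes were raised and 12.3% lowered. In WT/- 5 were raised, PTGES and HPGD in addition, against 11.9% of all genes raised and 8.77% lowered. In HAQ/- 2 were raised, PTGS2 and PTGER2, against 6.75% raised and 5.76% lowered. No member was lowered that far in any line (0 of 6). Just inside the threshold lay HPGD in the WT/- clone at 1.59, and just outside it PTGS1 in the WT/- clone at 1.49. The median log2 fold of the 6 was 0.60 in WT/HAQ, 2.21 in the WT/- clone and 0.42 in the HAQ/- clone, against medians over all analysed genes of -0.01, -9.97e-05 and -0.01. These shares describe genes that were chosen on this contrast and are no evidence about the pathway.

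**Figure D3:**
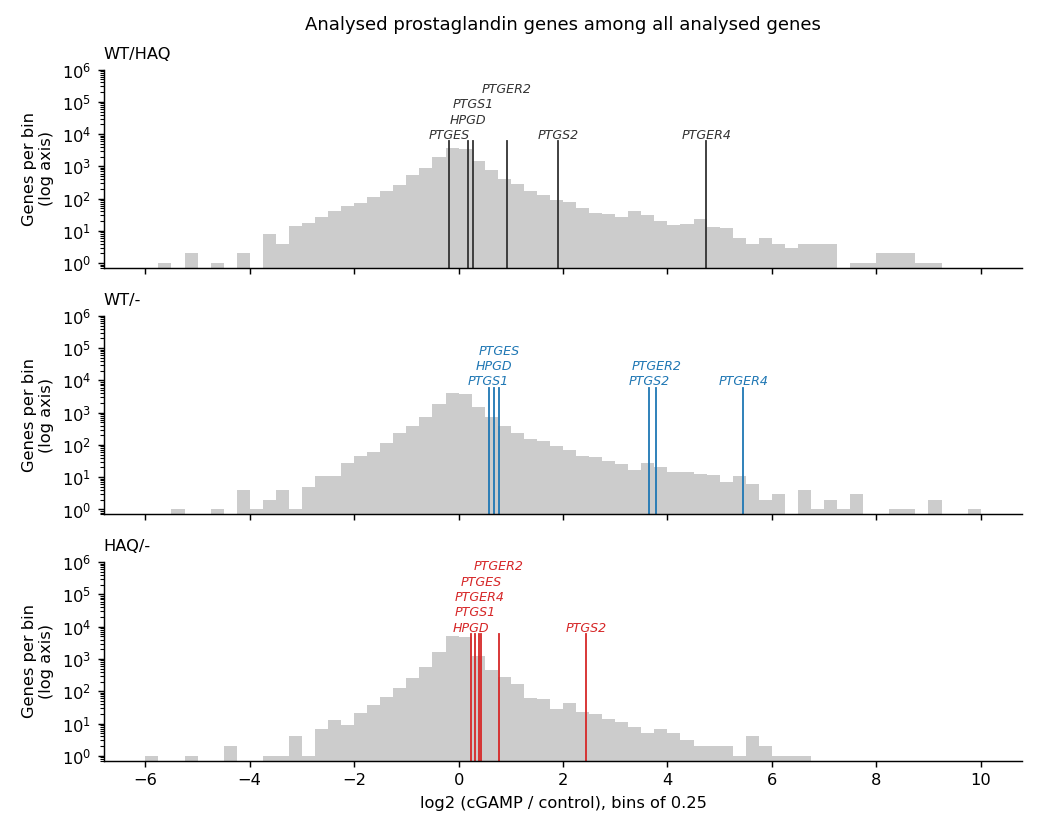
Number of analysed genes per bin of log2 cGAMP fold (log axis) in each line, with vertical lines for the 6 analysed prostaglandin genes and genes beyond the axis counted in its outermost bins. In WT/- PTGS2, PTGER2 and PTGER4 lie in the upper tail, and in the HAQ/- clone PTGER4 lies at 0.40, within the body of the distribution.

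The levels before treatment were compared between the 3 control libraries, with 1 library for each line and no test. Of the 6 analysed genes, PTGS2 and PTGES were at least 1.5-fold higher and PTGS1 and PTGER2 at least 1.5-fold lower in WT/- than in WT/HAQ, where 22.8% of all genes differed that far in either direction. PTGS2 was 3.92 times as high in the WT/- clone [2.64, 5.81] and PTGES 1.95 times [1.28, 2.97]. The PTGER2 ratios rest on 21 counts in the parent line against 11 and 14 in the WT/- and HAQ/- clones, and their intervals include 1, at 0.553 [0.271, 1.13] for WT/- and 0.658 [0.339, 1.28] for HAQ/- against WT/HAQ. In HAQ/- against WT/HAQ, PTGS2 and PTGER2 were lower and no member higher, against 16.0% of all genes. The PTGS2 level of HAQ/-, from 3 counts, was 0.0955 of that in WT/HAQ [0.0310, 0.294]. In HAQ/- against WT/-, PTGS1 was higher and PTGS2 and PTGES lower, against 26.9% of all genes. PTGS1 was 2.41 times as high in the HAQ/- clone [1.73, 3.36], and PTGES was 0.383 of its level in the WT/- clone [0.242, 0.608]. The control levels of PTGER4 did not reach 1.5-fold in any pair, with ratios of 0.679 [0.420, 1.10], 0.916 [0.595, 1.41] and 1.35 [0.831, 2.20] for WT/- against WT/HAQ, HAQ/- against WT/HAQ and HAQ/- against WT/-.

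The mean difference between lines was put to a quasi-likelihood test in edgeR that used all 6 libraries and took the treatment as a block. The rule did not name this difference, but it read the same cGAMP libraries, and the members were chosen with earlier results known. The p-values are therefore not independent of the choice. A line then has 2 libraries, 1 control and 1 cGAMP, which are not replicate cultures, so the p-values measure only the spread left after the treatment term. The WT/- clone exceeded WT/HAQ in PTGS2 by a log2 difference of 3.12 (SE 0.40, adjusted p = 0.0189), the 1 of the 5 genes tested that passed, where 8.81% of all genes did. The difference had the same sign in the control and the cGAMP libraries. PTGES, with a log2 difference of 1.44 (SE 0.33, adjusted p = 0.0610), and PTGS1, at -0.68 (SE 0.20, adjusted p = 0.0973), did not pass. Between HAQ/- and WT/HAQ 0 of the 5 passed, where 1.22% of all genes did, and PTGS2 differed by -3.08 on the log2 scale (SE 0.64, adjusted p = 0.102 and unadjusted p = 0.00425). DESeq2 called that difference, with an adjusted p of 1.71e-05. PTGER4 was not tested because its difference between lines under cGAMP is part of the rule.

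Between HAQ/- and WT/-, 3 of the 5 passed, where 19.1% of all genes did. PTGS2 was lower in the HAQ/- clone by a log2 difference of -6.20 (SE 0.54, adjusted p = 0.00494), PTGES was lower by -1.56 (SE 0.33, adjusted p = 0.0348) and PTGS1 was higher by 1.14 (SE 0.20, adjusted p = 0.0210). Both cyclooxygenase genes thus differed between the clones, in opposite directions. PTGER2 at -1.71 (SE 0.80, adjusted p = 0.191) and HPGD at -0.53 (SE 0.18, adjusted p = 0.102) did not pass. Without either WT/- library, 0 of the 15126 genes were called by edgeR in any of the 3 contrasts, the members included. In HAQ/- against WT/-, 3273 genes then had an unadjusted p under 0.05 without the WT/- control library and 3102 without the WT/- cGAMP library. In WT/- against WT/HAQ these numbers were 2258 and 2429, and in HAQ/- against WT/HAQ 2072 and 2090. The adjusted p of PTGS2 in HAQ/- against WT/- was then 0.0564 and 0.0716. Without either HAQ/- library PTGES lost its call in HAQ/- against WT/-, with adjusted p of 0.0614 and 0.0732. Without the WT/HAQ cGAMP library PTGS2 lost its call in WT/- against WT/HAQ, with an adjusted p of 0.0618. Without the HAQ/- control library it gained one in HAQ/- against WT/HAQ, at 0.0177, and without either HAQ/- library PTGES was called in WT/- against WT/HAQ, at 0.0287 and 0.0290.

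The genes whose pattern over the 6 libraries was most like that of PTGER4, by Pearson correlation of log2(normalized count + 1) among 12087 genes whose mean count was 50 or more, were FAS (r = 0.999), RAP2B (r = 0.998), PPA1 (r = 0.997), ACVR1 (r = 0.997) and LIN54 (r = 0.996). All 5 were also the nearest with DESeq2 size factors, and the 6 points share their libraries. FAS, the death receptor that binds the FAS ligand, had log2 cGAMP folds of 2.46 in WT/HAQ, 2.88 in the WT/- clone and 0.29 in the HAQ/- clone. ACVR1, a type I receptor of the BMP and activin family, had 2.26, 2.24 and 0.25. LIN54, a DNA-binding subunit of the DREAM complex, had 2.25, 2.90 and 0.03, RAP2B, a small GTPase, had 1.72, 2.04 and 0.34, and PPA1, an inorganic pyrophosphatase, had 1.58, 1.93 and 0.25. PTGER4 had 4.75, 5.45 and 0.40. All 5 shared the 2 raised lines with PTGER4 at smaller folds.

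**Figure D4:**
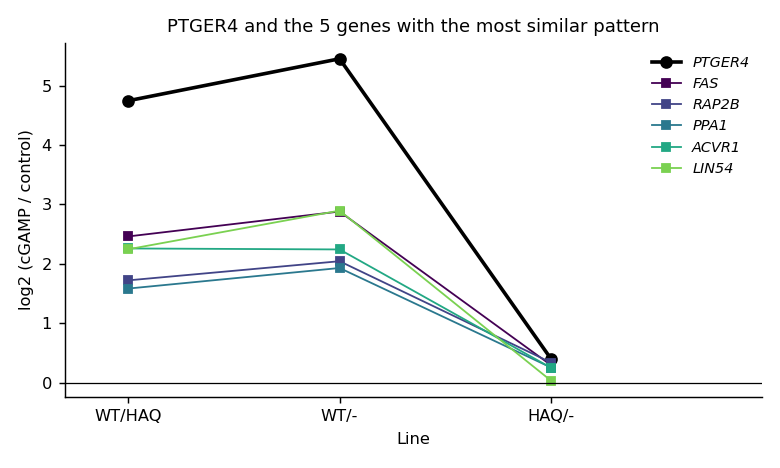
log2 ratio of the cGAMP to the control library in the 3 lines for PTGER4 and the 5 genes whose levels over the 6 libraries correlated most with it, with lines that only join the points of a gene. All 6 genes are high in WT/HAQ and WT/- and at 0.40 or below in the HAQ/- clone.

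The genes most like PTGS2, PTGER2, PTGES and HPGD were found by the same correlation, which ignores the size of a change. For PTGS2 they were MPC1 (r = 0.997), ACBD5 (r = 0.994) and SAP18 (r = 0.992), and MPC1 had log2 cGAMP folds of 0.15, 0.34 and 0.13 in WT/HAQ, WT/- and HAQ/-. For PTGER2 they were MAPKBP1 (r = 0.990), PCNP (r = 0.980) and MT-CO1 (r = 0.980), and MAPKBP1 had log2 folds of 0.34, 0.82 and 0.19. For PTGES they were RB1, FXR1 and MAGED2, with r from 0.988 to 0.991, and for HPGD SERINC1, MTND2P28 and KCTD18, with r from 0.994 to 0.997. With DESeq2 size factors MT-CO1, MAGED2 and SERINC1 were no longer among the nearest 3. Among the members themselves, r over the 6 libraries was 0.954 for PTGS2 and HPGD, 0.872 for PTGER2 and PTGER4, 0.715 for PTGS2 and PTGER4 and -0.691 for PTGS1 and PTGES.

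The rest of the pathway was given by 44 genes, of which 29 passed the filter, and the cGAMP difference of these non-members was tested across the 3 lines with edgeR, with the line as a block. Of the 29, 1 was higher and 3 were lower, where 2.27% of all genes were higher and 0.959% lower. The lists were chosen with earlier results of these data known, so these calls are not independent of the choice. The 1 that rose was PLA2G4A, the cytosolic phospholipase A2 that releases arachidonic acid, with a log2 fold change of 4.29 (SE 0.59, adjusted p = 0.0331). It lies next to PTGS2 on chromosome 1, 148026 bases away, and the stretch between them holds only the far part of PACERR in the annotation. Its counts were 3 and 36 in WT/HAQ, 2 and 79 in the WT/- clone, and 2 and 10 in the HAQ/- clone. The cGAMP library was above the control in all 3 lines, by folds of 12.9 [4.22, 39.5], 56.5 [15.3, 209] and 6.27 [1.55, 25.5], each from 2 or 3 control counts. Its mean count of 22 passed the filter only through its cGAMP libraries, so its call is no independent sign of a rise in the pathway. The ratio of its fold in the WT/- clone to that in the HAQ/- clone was 9.01 [1.14, 71.2], that of WT/- to WT/HAQ 4.38 [0.701, 27.4] and that of WT/HAQ to HAQ/- 2.06 [0.301, 14.0]. Without the WT/- line its adjusted p was 0.316 and without WT/HAQ 0.0979.

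Of the 4 other analysed phospholipase A2 genes, 0 passed in edgeR or DESeq2, and 1, PLA2G4C, had an unadjusted p under 0.05 in each. PLA2G4C, a gene that was chosen after seeing its values, showed 25 and 167 counts in WT/HAQ, 55 and 118 in the WT/- clone and 15 and 8 in the HAQ/- clone, for log2 folds of 2.84 [2.24, 3.45], 1.62 [1.16, 2.08] and -0.58 [-1.78, 0.62], with an adjusted p of 0.147. PLA2G4B, also named after its values were seen and overlapped by the read-through gene JMJD7-PLA2G4B, had 8 and 6 counts in WT/HAQ, 17 and 16 in the WT/- clone and 12 and 23 in the HAQ/- clone. Its log2 fold was highest in the HAQ/- clone, at 1.27 [0.28, 2.25], against -0.31 [-1.77, 1.15] in WT/HAQ and 0.43 [-0.54, 1.40] in the WT/- clone (adjusted p = 0.450 in the test). PLA2G12A, a secreted form, and PLA2G6, a calcium-independent form, had log2 fold changes of 0.14 (adjusted p = 0.296) and -0.03 (adjusted p = 0.917). The median log2 fold of the 5 analysed phospholipases was 0.16 in WT/HAQ, 0.43 in the WT/- clone and 0.07 in the HAQ/- clone. Of the 9 synthases and related enzymes 7 were analysed and 0 passed, with medians of 0.10, 0.15 and 0.15. PTGIS, the prostacyclin synthase, had a log2 fold change of 0.41 (SE 0.08, adjusted p = 0.0620), with normalized counts of 2245 and 3184 in WT/HAQ, 2995 and 4072 in the WT/- clone and 2624 and 3178 in the HAQ/- clone, and PTGES3, a cochaperone with prostaglandin E synthase activity, had 0.03 (adjusted p = 0.805). DESeq2 called PTGIS, with an adjusted p of 0.0133.

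None of the 6 other prostanoid receptors was analysed (0 of 6). PTGFR had the highest mean count of them, with between 0 and 4 counts in a library. PTGER1 and TBXA2R tied for the next place, with between 0 and 2 and between 0 and 3 counts. Of the 9 prostanoid receptor genes, members included, PTGER2 and PTGER4 passed the filter. The 4 genes of transport and breakdown had medians of 0.15, 0.18 and 0.10 with 0 passing, and PTGR1 and PTGR2, which reduce prostaglandin metabolites, had log2 fold changes of 0.06 (adjusted p = 0.628) and 0.09 (adjusted p = 0.589). In the lipoxygenase branch, which makes leukotrienes from the same arachidonic acid, 2 of 6 were analysed. ALOX5, the 5-lipoxygenase, had a log2 fold change of 0.78 (SE 0.16, adjusted p = 0.0723) and LTA4H, the leukotriene A hydrolase, 0.22 (adjusted p = 0.131). DESeq2 called ALOX5, with an adjusted p of 0.0313.

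**Figure D5:**
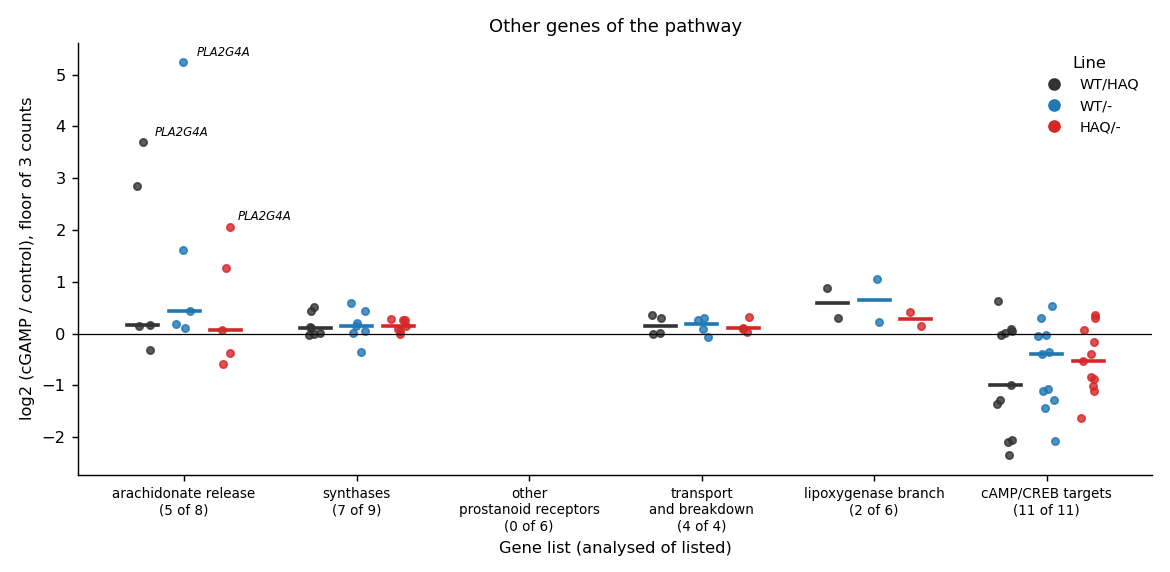
log2 ratio of the cGAMP to the control library, with counts under 3 set to 3, for the analysed genes of 6 pathway lists in each line, with points for genes and bars for list medians. PLA2G4A is the highest point in each line, and the cAMP/CREB target genes have medians below 0 in all 3 lines.

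Genes that respond to cAMP through the factor CREB are known targets downstream of EP2 and EP4, and all 11 listed were analysed. Their median log2 fold was -0.99 in WT/HAQ, -0.40 in the WT/- clone and -0.52 in the HAQ/- clone. Over all genes the medians were -0.01, -9.97e-05 and -0.01. In the test 3 of the 11 fell and 0 rose, where 0.959% of all genes fell and 2.27% rose. The list was chosen with earlier results of these data known, so these calls are no independent sign of a fall in these targets. NR4A1, an orphan nuclear receptor, fell by 1.08 on the log2 scale (SE 0.11, adjusted p = 0.0142), from a normalized count of 895 to one of 368 in WT/HAQ, from 1223 to 566 in the WT/- clone, and from 467 to 262 in the HAQ/- clone. SIK1, a salt-inducible kinase, fell by 1.54 (SE 0.19, adjusted p = 0.0257) and PER1, a circadian repressor, by 1.67 (SE 0.24, adjusted p = 0.0383), each by more than 1.5-fold in all 3 lines. FOS and DUSP1, the 2 most abundant, had log2 fold changes of -0.34 (adjusted p = 0.393) and -0.03 (adjusted p = 0.846). The log2 folds of FOS were -0.02 [-0.11, 0.06] in WT/HAQ, -0.02 [-0.09, 0.04] in the WT/- clone and -1.02 [-1.17, -0.86] in the HAQ/- clone. Without the WT/- line none of these calls was kept, with adjusted p of 0.248, 0.304 and 0.191, and edgeR then called 0 genes in all, with 1894 at an unadjusted p under 0.05.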

How the data were processed

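RNA from 6 SKOV3 cultures was sequenced as paired reads from poly(A)-selected TruSeq libraries. The authors deposited expected counts per Ensembl gene, estimated with RSEM after STAR alignment, without normalization. The submitters' processing notes name GRCh38, and versions, annotation release and strand setting are not given in the sources used here. All 6 columns matched a sample by label, and 92.7% to 93.3% of the values, zeros included, were exactly whole before rounding. Totals ranged from 12444791 to 17608427 counts, and low counts limit the precision of PTGER2, PTGER3 and PTGS2.

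The members and the pathway lists were chosen with earlier results of these data known. Named genes are the members, list genes that passed the test, moved past 1.5-fold one way in all 3 lines or had the 2 highest means of their list, the 3 genes most like each member (5 for PTGER4; those of PTGS1 are not reported here), STING1, IFIT1, ISG15 and MX1. TTC33 and PACERR were added because they overlap members, and PLA2G4B, PLA2G4C, KRT19, ERBB2 and PAX8 after their values were seen.

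Counts were scaled by TMM factors in edgeR 4.0.16 (R 4.3.3), with normalized counts at the geometric mean of these libraries' effective sizes. Counts under 3 were set to 3 for ranks, calls and medians, and printed folds use the counts themselves. Intervals are Wilson for folds, exact Poisson for levels and log-normal for ratios of folds. The edgeR quasi-likelihood test used Benjamini-Hochberg adjustment over 15126 genes at 0.05, with 2 residual degrees of freedom. DESeq2 1.42.0, other scalings, thinning, floors, filters, thresholds, fits without the block and fits without each library or line were alternatives. Tests and folds were tested on simulated data. The rest was done in Python 3.11.15 (pandas 2.3.3, numpy 2.4.6, matplotlib 3.10.9, scipy 1.17.1). RefSeq promoter windows matched 7 of the 8 symbols searched, the members and PLA2G4A, and PTGER3 had none.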

Additional observations from a re-analysis of the deposited data

Results flagged for a closer look

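Among the members, the named pathway genes and TTC33, the cGAMP log2 fold of 1 line had the opposite sign to that of the other two lines in 9 genes. Each line has 1 library a treatment, and none of these differences was tested. PTGES had -0.18 in WT/HAQ against 0.78 in WT/- and 0.44 in HAQ/-. PLA2G6 had -0.38 in HAQ/- against 0.16 in WT/HAQ and 0.12 in WT/-. PTGES3 had -0.032 in WT/HAQ against 0.04 and 0.08 in WT/- and HAQ/-. PTGR2 had -0.017 in WT/HAQ against 0.26 and 0.03. DUSP1 had 0.097 in WT/HAQ against -0.04 in WT/- and -0.16 in HAQ/-. PTGER3, below the filter on mean counts, had -0.63 [-2.55, 1.29] in WT/HAQ from 3 cGAMP and 5 control counts, against 4.22 [1.64, 6.80] in WT/-, where the control library held 1 count, and 0.91 [-0.52, 2.34] in HAQ/-. PLA2G4C had -0.58 [-1.78, 0.62] in HAQ/- against 2.84 in WT/HAQ and 1.62 in WT/-. PLA2G4B had -0.31 [-1.77, 1.15] in WT/HAQ against 0.43 in WT/- and 1.27 in HAQ/-. TTC33 had -0.11 [-0.35, 0.13] in HAQ/- against 0.33 and 0.55.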

How the results depend on the processing

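No value past its threshold changed direction under any alternative run. Among counts over many genes or members, 127 stayed within 1.5 times and 63 moved by more. Among values of single genes, 414 stayed on their side of the threshold or within their error, 24 lost a call, 10 gained one and 8 moved by more, among them the fold of PTGES in WT/HAQ, which was below the threshold and changed sign with thinning. The limits are 1 library per line and treatment, counts of 1 to 42 for PTGER2, PTGER3, PTGER4 and the HAQ/- PTGS2 level in control libraries, and a test that leaves 2 residual degrees of freedom. The control and cGAMP libraries of a line were paired through the line block of the treatment test, and the labels give no replicate number.

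Among cGAMP folds, at least 2-fold was reached by 3 members in WT/- and 1 in HAQ/-, and 1.2-fold by 5 in HAQ/-, where 6.57%, 3.10% and 15.4% of all genes were raised as far. A mean count of at least 50 left 3 members raised in WT/- and 1 in HAQ/- (8.41% and 3.53% of all genes), and a mean count of at least 1 added 1 lowered member in WT/HAQ, PTGER3 (13.4%). With libraries thinned to the smallest total, 1 member was raised in HAQ/- (7.01%). In control libraries, a 2-fold threshold gave 1 member higher and 0 lower in WT/- against WT/HAQ, and 1 lower in HAQ/- against WT/HAQ, where 9.95% and 6.54% of all genes differed as far in either direction. A 1.2-fold threshold gave 1 higher and 4 lower in HAQ/- against WT/HAQ, and 2 higher in HAQ/- against WT/-, where 39.9% and 55.3% of all genes did. A mean count of at least 50 gave 1 higher and 1 lower in WT/- against WT/HAQ, 1 lower in HAQ/- against WT/HAQ and 1 lower in HAQ/- against WT/- (16.3%, 9.35% and 20.7% of all genes in either direction), and a mean count of at least 1 gave 2 higher in HAQ/- against WT/- (29.0%). In HAQ/- against WT/HAQ, total counts, thinning and a prior count of 2 each left 1 member lower (16.0%, 16.6% and 14.9%), and thinning gave 2 higher in HAQ/- against WT/- (27.6%). Total counts moved the median of all genes by 0.10 on the log2 scale in HAQ/- against WT/-.

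Without the treatment block, the edgeR test between lines called 247 genes in WT/- against WT/HAQ, 14 in HAQ/- against WT/HAQ and 710 in HAQ/- against WT/-, with 0 members in each (2963, 1663 and 3863 genes at an unadjusted p under 0.05). In HAQ/- against WT/HAQ, DESeq2 called 557 genes and 1 member, and a mean count of at least 1 gave 371 genes. Leaving out 1 library gave 0 to 2649 genes and 0 to 2 members in WT/- against WT/HAQ, 0 to 1317 genes and 0 to 1 members in HAQ/- against WT/HAQ, and 0 to 3027 genes and 0 to 3 members in HAQ/- against WT/-. Each lowest count is without a WT/- library, and 0 members were also called in WT/- against WT/HAQ without the WT/HAQ cGAMP library. The treatment test called 489 genes and 4 pathway genes, against 1355 and 8 with DESeq2, 62 and 0 without the line block, and 1014 and 8 with a mean count of at least 1. Leaving out 1 line gave 0 to 2589 genes and 0 to 10 pathway genes, the lowest without WT/-. The cause of these differences was not tested.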
